A study of Rattus norvegicus with 24 samples.

Results

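A set of 3 transcripts with a higher signal in an old limb muscle was followed array by array: Polr1a, Slc29a1 and the transcript behind the probe set AF030089UTR#1_at. They were chosen for their higher signal in the extensor digitorum longus (EDL) at 30 months than at 6 months, and every row of the table with the platform symbol Polr1a or Slc29a1 was taken. Each symbol had 1 row, Polr1a as AF025425_at (Entrez 83581) and Slc29a1 as AF015304_at (Entrez 63997), so the set held 3 of 8740 non-control rows. AF030089UTR#1_at has no entry in the platform annotation and is unnamed here. A probe set is a group of short probes on the array that is summarised into 1 signal for 1 transcript.

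The study compared 2 rat muscles across age. The EDL is a fast muscle of the hindlimb that lifts the toes, and the extraocular muscles (EOM) turn the eye. The 6 groups were EDL at 6, 18 and 30 months and EOM at 6, 18 and 30 months, with 4 arrays each and 24 in all, and each RNA sample combined tissue of 4 animals. No group carried a treatment or an altered allele in the labels, and the strain and sex of the rats are not given in the sources used here.

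RNA polymerase I copies the genes of the large ribosomal RNA in the nucleolus, and Polr1a is its largest, catalytic subunit. Its output sets how many ribosomes a cell can build, and ribosome production is a known part of muscle growth and regeneration. Slc29a1 is the equilibrative nucleoside transporter ENT1, a membrane protein that lets adenosine and other nucleosides run down their gradient in either direction. Adenosine arises from ATP breakdown in working muscle and widens its vessels, so such transporters bear on how long it acts.

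The 250 bases before the RefSeq transcription start of the named genes are shown as a description. The members were chosen for higher signal in the same EDL arrays, and shared control was not tested. Sequences are from RefSeq, build GRCr8, plus strand, 5′ to 3′. The Polr1a window is chr4:105508055-105508304 and the Slc29a1 window chr9:22896849-22897098. Capitals mark matches to any of 4 motifs, searched on both strands.

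Polr1a promoter: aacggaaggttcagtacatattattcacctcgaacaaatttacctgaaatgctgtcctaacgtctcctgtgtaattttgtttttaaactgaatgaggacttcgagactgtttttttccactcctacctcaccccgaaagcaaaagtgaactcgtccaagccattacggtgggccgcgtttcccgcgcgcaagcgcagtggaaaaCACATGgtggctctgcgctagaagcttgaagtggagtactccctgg

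Slc29a1 promoter: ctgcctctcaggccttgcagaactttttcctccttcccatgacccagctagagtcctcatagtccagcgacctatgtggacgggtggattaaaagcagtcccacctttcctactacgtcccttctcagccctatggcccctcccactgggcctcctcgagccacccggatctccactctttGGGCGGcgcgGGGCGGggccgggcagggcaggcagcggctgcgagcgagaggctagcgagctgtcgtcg

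The motifs were the E-box CANNTG, the site shape of myogenic and other helix-loop-helix factors, the GC box GGGCGG, the CCAAT box CCAAT and the TATA box TATAAA. The Polr1a window held 1 E-box, 46 to 41 bases before the start, and no other motif. An E-box is in 65.5% of 33469 rat promoter windows of this length. The Slc29a1 window held 2 GC boxes on the plus strand, 69 to 64 and 59 to 54 bases before the start, and no other motif. A GC box is in 30.5% of the windows, a CCAAT box in 34% and a TATA box in 12.9%. The windows shared no motif of the 4. Their GC content was 47.6% for Polr1a and 63.6% for Slc29a1, against a median of 51.2% over all windows. AF030089UTR#1_at has no entry among these windows.

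Signals are arbitrary units on a linear scale. The median signal of an array lay between 89.7 and 136.8. Signals under an array's 25th percentile, its floor, were set to that percentile (21.37 to 34.5) before log2 was taken, so log2 differences of dim transcripts are understated. The least typical array was EDL at 30 months, replicate 1: its median Spearman correlation to its own group was 0.873, and every other array had 0.915 to 0.962. Replicates 1 and 2 of EDL at 6 months had 3' to 5' actin ratios of 2.54 and 3.54, the latter the highest of all arrays. Marker levels fitted the muscle labels. The summed signal of Myh13, Myh8 and Myh3, myosins of extraocular and developing fibres, was 36560 to 59140 in EOM and 877.7 to 3731 in EDL.

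The probe set AF030089UTR#1_at had the largest difference between EDL at 30 and at 6 months of all 5741 probe sets tested, and was chosen for it. In EDL at 6 months its signals were 14.6, 85.6, 72.6 and 23.8 in replicates 1 to 4. In EDL at 18 months they were 54.7, 91.4, 134.8 and 18.7. In EDL at 30 months they were 3913, 3509.4, 1119.8 and 1631.3. The lowest array at 30 months was 13.1 times the highest at 6 months. The transcript thus went from the lower part of the array's range to its upper end: its percentile among all rows was 18.8 to 47.7 at 6 months, 17.8 to 50.5 at 18 months and 87.1 to 95.4 at 30 months. Group means were 49.15 ± 35.2 (SD, n = 4), 74.9 ± 49.8 and 2543 ± 1370. The log2 difference of 30 and 6 months was 5.69 (SE 0.48, 95% confidence interval 4.7 to 6.68), or 51.6-fold, given as a description with no test. Since 2 of 4 arrays at 6 months lay at the floor, the size depends on how low signals are handled. It was 30.2-fold with log2(signal + 32) and no floor, and 58.4-fold with the floor at the 10th percentile. In bulk muscle, a change in the share of a cell type and a change in RNA per cell cannot be told apart.

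In EOM the same probe set was measured above the floor on all 12 arrays and stayed low. Its signals were 102.9, 145.7, 115.8 and 90.2 at 6 months. They were 215.1, 134.6, 145.1 and 106.7 at 18 months, and 159.3, 165.7, 74.4 and 138.6 at 30 months. The highest EOM array therefore lay below the lowest array of EDL at 30 months by a wide margin, 215.1 against 1119.8. The order of the group means was EDL at 30 months, then EOM at 18, 30 and 6 months (150.4 ± 46.1, 134.5 ± 41.7 and 113.6 ± 23.8), then EDL at 18 and at 6 months. Apart from EDL at 30 months, the arrays of each pair of neighbours in that order overlapped.

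Polr1a was dim in 5 of the 6 groups. It entered the tests only through EDL at 30 months, where all 4 arrays exceeded the filter on low values, against 0, 1, 1, 0 and 0 arrays in EDL at 6 and 18 months and EOM at 6, 18 and 30 months. Its signals were 40.4, 38.6, 46.5 and 21.9 in EDL at 6 months. In EDL at 18 months they were 30.3, 170, 39.5 and 28, with replicate 2 alone far above the rest. In EDL at 30 months they were 391.6, 340.8, 194.8 and 115.7. All arrays at 30 months lay above all at 6 months, but replicate 4 at 30 months lay below replicate 2 at 18 months, so these ages overlapped. Its place within the array went from the 22.1 to 34.8 percentile at 6 months to the 49.1 to 74.3 percentile at 30 months, the middle of the range and not its top. Means were 36.85 ± 10.5 (SD, n = 4), 66.95 ± 68.9 and 260.7 ± 128. The log2 difference of 30 and 6 months was 2.65 (SE 0.49, interval 1.64 to 3.67), or 6.3-fold, and ranked 15 among the 5741. With log2(signal + 32) and no floor it was 3.95-fold, and with the floor at the 10th percentile 6.6-fold. That of 18 and 6 months was 0.45 (interval -0.56 to 1.46), and -0.13 without replicate 2 of EDL at 18 months.

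Polr1a in EOM lay at the floor on 3 of 4 arrays at every age. Its signals were 21.3, 87.5, 22 and 22.4 at 6 months, with replicate 2 the exception. They were 25.8, 15.9, 13.6 and 13.2 at 18 months and 20.2, 31.2, 19.9 and 31.3 at 30 months. At these levels the arrays set only an upper limit to the transcript, and no order of the EOM ages can be read. The means ran from 260.7 in EDL at 30 months through EDL at 18 months, EOM at 6 months (38.3 ± 32.8), EDL at 6 months and EOM at 30 months (25.65 ± 6.47) to EOM at 18 months (17.12 ± 5.9). Each neighbour in that order overlapped the next.

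Slc29a1 was bright in every group and had the tightest replicates of the set. Its signals were 623.2, 808.5, 715.1 and 684 in EDL at 6 months. They were 688, 645.6, 673.6 and 547.8 at 18 months. At 30 months they were 1826.4, 2314.2, 1183.6 and 1687.4, so the lowest was 1.46 times the highest at 6 months. Means were 707.7 ± 77.3 (SD, n = 4), 638.8 ± 63.1 and 1753 ± 465. The log2 difference of 30 and 6 months was 1.27 (SE 0.18, interval 0.9 to 1.65), or 2.42-fold, which ranked 113. That of 18 and 6 months was -0.15 (interval -0.52 to 0.22), and the 2 ages overlapped. No Slc29a1 signal lay at the floor on any array.

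In EOM, Slc29a1 was 570.5, 606.2, 465.1 and 493.9 at 6 months. It was 513.4, 452.4, 661.5 and 513.2 at 18 months and 525.3, 587, 486.8 and 498.2 at 30 months. The 3 EOM means lay within 524.3 ± 44.8 and 535.1 ± 89 and their arrays overlapped. The order of means was EDL at 30, 6 and 18 months, then EOM at 18, 6 and 30 months, and only EDL at 30 months was clear of its neighbour.

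**Figure D1:**
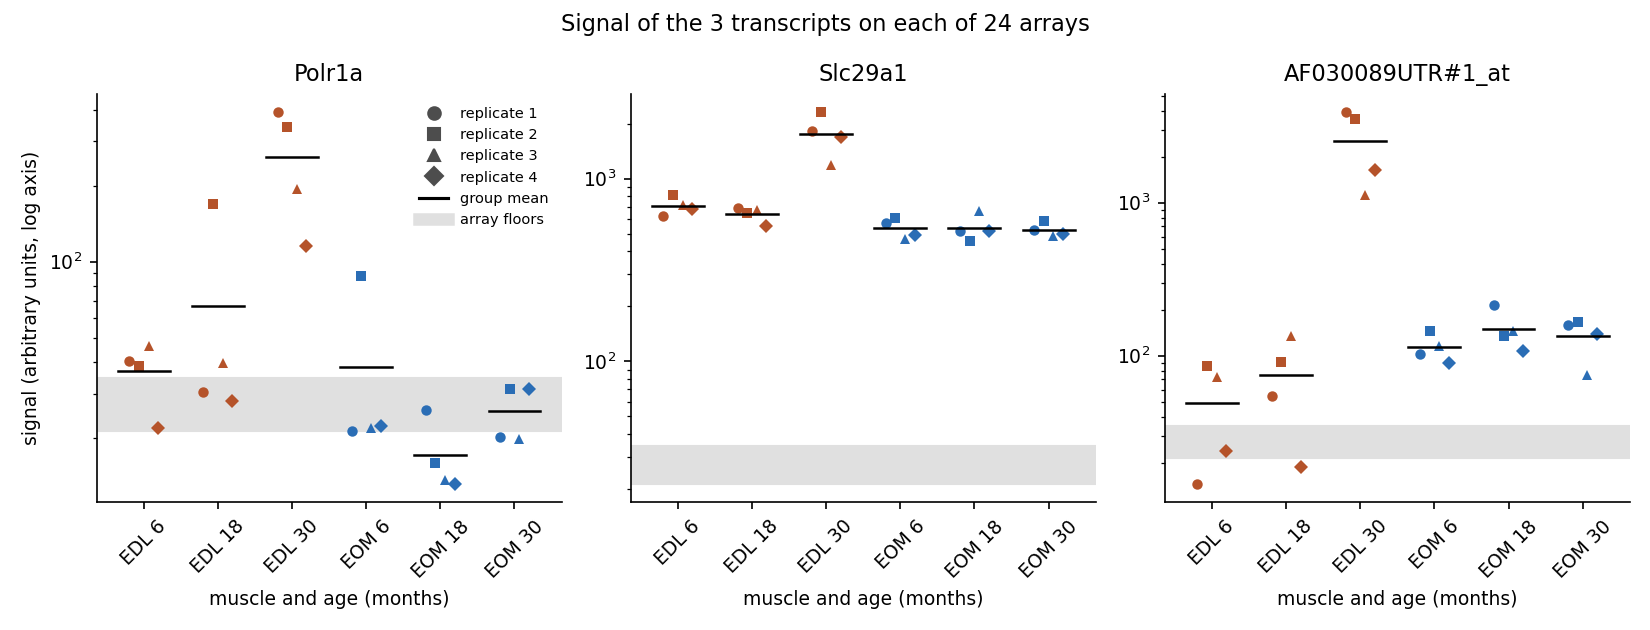
Signal of Polr1a, Slc29a1 and AF030089UTR#1_at (vertical axis, arbitrary units, log scale) on each of 24 arrays, by muscle and age in months. Symbols are replicates 1 to 4, black lines group means and the grey band the range of array floors, 21.37 to 34.5. The 4 arrays of EDL at 30 months lie above all 20 others for Slc29a1 and AF030089UTR#1_at, while for Polr1a the array at 170 in EDL at 18 months lies above the lowest of them, 115.7.

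These comparisons put the members among all tested probe sets, and since the members were chosen on them, nothing is read from their place. All arrays of EDL at 30 months were above all at 6 months for 163 probe sets (2.84%), the 3 members among them, and for 88 (1.53%) the ratio of means was also above 2. The arrays of EDL at 30 months were above all 20 other arrays for 29 probe sets (0.505%), which included Slc29a1 and AF030089UTR#1_at but not Polr1a. By limma, 85 probe sets (1.48%) were higher and 22 (0.383%) lower in EDL at 30 than at 6 months at an adjusted p under 0.05. With arrays centred on their medians the split was 55 higher and 26 lower (67.9% higher, against 79.4%), and the median over all tested probe sets went from 0.03 to -0.12. The total of 107 was 172 with the replicate number as a block and 68 without replicate 1 of EDL at 30 months.

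Within EDL at 30 months, replicates 1 and 2 exceeded replicates 3 and 4 for all 3 members, if only slightly so for Slc29a1. The acetylcholine receptor subunit Chrna1 had the same split, with 5467.8 and 4866.5 against 2690.9 and 2702.7. From replicates 1 and 2 alone the log2 difference of 30 and 6 months was 6.43 for AF030089UTR#1_at, 3.21 for Polr1a and 1.53 for Slc29a1, and from replicates 3 and 4 alone it was 4.95, 2.10 and 1.01. Without replicate 1 of EDL at 30 months it was 2.41 for Polr1a, 1.24 for Slc29a1 and 5.42 for AF030089UTR#1_at. With replicates 3 and 4 as the only arrays of EDL at 6 months, which leaves out the high actin ratios, it was 2.74, 1.28 and 5.68. These last fits each kept the arrays that the other left out. Replicates 3 and 4 alone, which hold neither doubted set, gave the smaller values above. The differences chose the members, and the part of array quality in them was not tested.

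The first comparison that did not serve to choose the members asked whether they differ with age in EOM. Neither Slc29a1 nor AF030089UTR#1_at passed the test there, and for Polr1a, at the floor on most EOM arrays, the test is not informative. Between 30 and 6 months the log2 difference was 0.20 (SE 0.48, interval -0.79 to 1.19) for AF030089UTR#1_at. It was -0.29 (SE 0.49, interval -1.3 to 0.72) for Polr1a, with 3 of 4 arrays of both ages set to the floor, so this value mostly compares floors. For Slc29a1 it was -0.02 (SE 0.18, interval -0.39 to 0.35), which spans 0.762-fold to 1.27-fold and is the narrowest interval of the set. The limma adjusted p was 1 for each, and the unadjusted p was 0.682, 0.555 and 0.904. EOM had few calls at all: 2 probe sets (0.0348%) differed between 30 and 6 months, 10 (0.174%) between 18 and 6 months and 1 (0.0174%) between 30 and 18 months, against 132, 228 and 136 at an unadjusted p under 0.05. With the replicate block these counts were 3, 33 and 3.

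Between 18 and 6 months in EOM the log2 differences were 0.38 (interval -0.61 to 1.37) for AF030089UTR#1_at, -0.28 (interval -1.3 to 0.73) for Polr1a and 0.00 (interval -0.37 to 0.37) for Slc29a1. Between 30 and 18 months they were -0.18, -0.01 and -0.02. The change with age in EOM minus that in EDL, from 6 to 30 months, was -5.49 (SE 0.679) for AF030089UTR#1_at, -2.95 (SE 0.693) for Polr1a and -1.30 (SE 0.254) for Slc29a1. These last values include the EDL arrays that chose the members and have no test.

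**Figure D2:**
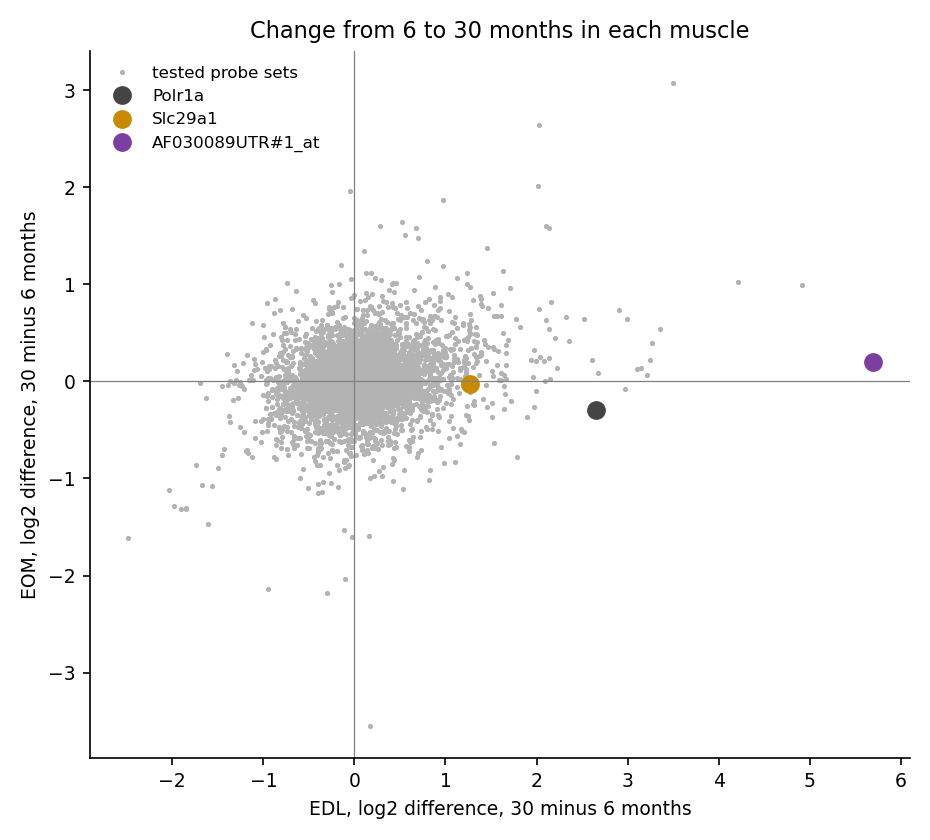
Log2 difference of 30 minus 6 months in EDL (horizontal) and in EOM (vertical) for 5741 probe sets (grey) and the 3 members (coloured). The members lie at 2.65, 1.27 and 5.69 on the EDL axis, on which they were chosen, and at -0.29, -0.02 and 0.20 on the EOM axis.

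The second such comparison set EOM against EDL at 18 months, where neither group was used in the choice. AF030089UTR#1_at was higher in EOM by 1.12 on the log2 scale (SE 0.48, interval 0.13 to 2.11), and the muscles overlapped, since replicate 3 of EDL had 134.8 and replicate 4 of EOM had 106.7. Its limma adjusted p was 0.0959, which missed the threshold, and 0.0372 without replicate 3 of EDL at 18 months. Polr1a was lower in EOM by a log2 difference of -0.80 (SE 0.49, interval -1.81 to 0.21, limma adjusted p 0.263). Its arrays did not overlap, with 28 the lowest in EDL and 25.8 the highest in EOM, but 2 of 4 in EDL and 3 of 4 in EOM were at the floor. The size was set largely by replicate 2 of EDL at 18 months, without which it was -0.22 (limma adjusted p 0.772). With the floor at the 10th percentile it was -1.57 (limma adjusted p 0.0462). Polr1a was tested only because of its high arrays in EDL at 30 months, and with most of these arrays at the floor no difference between the muscles is read from it. Slc29a1 gave -0.26 (SE 0.18, interval -0.63 to 0.11, limma adjusted p 0.316). None of the 3 passed in this fit, beside 1343 probe sets (23.4%) that did, 812 (14.1%) higher and 531 (9.25%) lower in EOM.

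At the other ages the same muscle difference can only be described. At 6 months AF030089UTR#1_at was higher in EOM by 1.37 on the log2 scale, with a narrow gap between the arrays, 90.2 or more against 85.6 or less. Slc29a1 was lower in EOM, with a log2 difference of -0.41, also with a narrow gap, 606.2 or less against 623.2 or more. The share of all probe sets without overlap was not counted here. By limma 1029 of 5741 differed between the muscles at 6 months, so nothing particular to the members is read from these gaps. Polr1a differed by -0.06. At 30 months EOM minus EDL was -4.12 for AF030089UTR#1_at, -1.70 for Slc29a1 and -3.01 for Polr1a. By group means AF030089UTR#1_at was thus higher in EOM at 6 and 18 months and in EDL at 30 months. At 18 months, however, the arrays overlapped and the difference missed the threshold. At 6 months 2 of 4 EDL arrays lay at the floor.

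**Figure D3:**
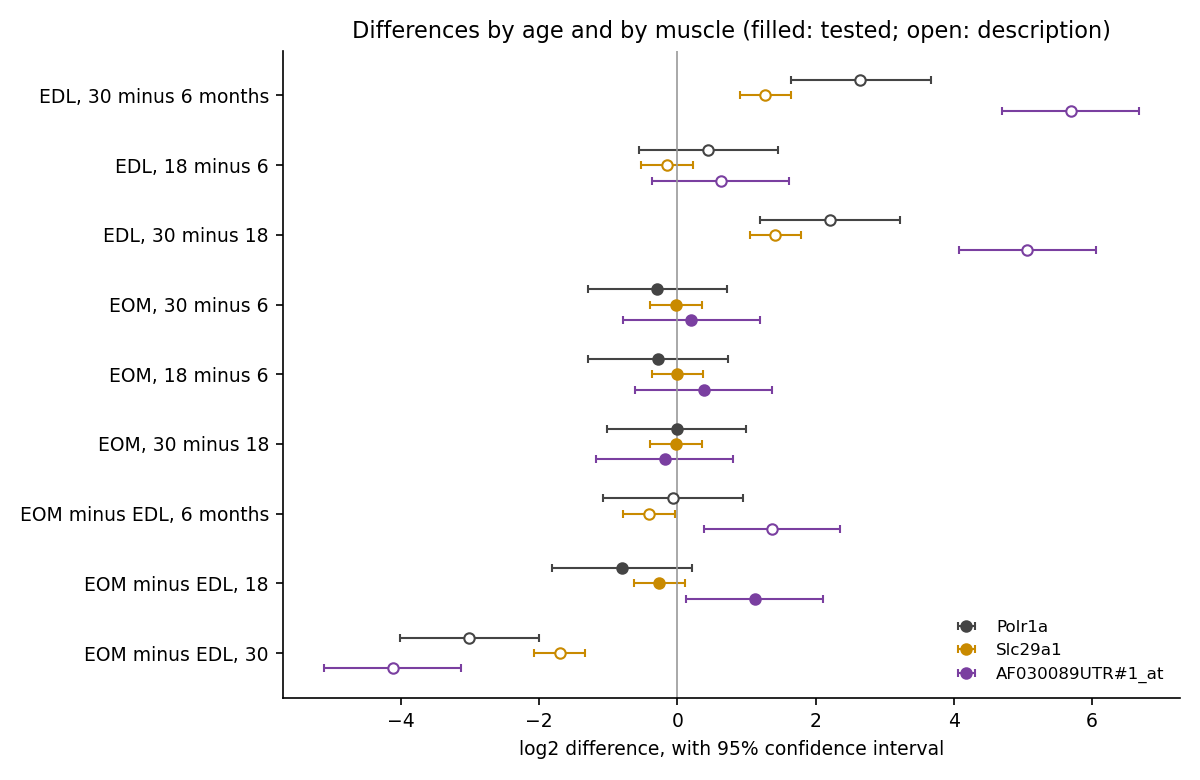
Log2 differences of the 3 members (horizontal axis) with 95% confidence intervals for 9 comparisons (rows). Filled points were tested and open points involve arrays that chose the members. Of the tested intervals, the one for AF030089UTR#1_at in EOM minus EDL at 18 months (0.13 to 2.11) leaves out 0, and its adjusted p was 0.0959.

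The machinery that Polr1a belongs to was described by a list of its other genes. Of 17 tested genes for RNA polymerase I and ribosome production, 0 passed in either direction by limma between EDL at 30 and 6 months, and 1 had a p under 0.05 before adjustment. With 1.48% of all probe sets higher and 0.383% lower, a count of 0 is near the background for a list of this size. Their median log2 difference was 0.12 against 0.03 over all tested probe sets. Polr1b, the second largest subunit of the same enzyme, had 346.8 ± 52.2 at 6 months and 352.6 ± 32.7 at 30 months (log2 difference 0.03, SE 0.17, limma adjusted p 0.984). Polr1d, a small subunit shared with RNA polymerase III, gave 0.19 (SE 0.264), and Nop58, a core protein of the particles that modify ribosomal RNA, gave 0.45 (SE 0.287). The transcription factor Myc, a driver of ribosome production, gave 0.83 (SE 0.37, limma adjusted p 0.402) from the brighter of 2 probe sets. The signals of that probe set were 47.5 to 86.5 at 6 months and 112 to 129.9 at 30 months, without overlap. The dimmer Myc probe set gave 1.44 (limma adjusted p 0.0826).

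Of 5 tested subunits of the other nuclear RNA polymerases, 0 passed between EDL at 30 and 6 months by limma (0 at an unadjusted p under 0.05), with a median of 0.01. Polr2a, the largest subunit of RNA polymerase II, gave 0.80 (SE 0.55, limma adjusted p 0.719) with overlapping arrays, and Polr3a, the largest of RNA polymerase III, gave -0.01 (SE 0.161). In EOM between 30 and 6 months 0 of the 17 and 0 of the 5 passed by limma, with 1 and 0 at an unadjusted p under 0.05. Between the muscles at 18 months, 2 of the 17 were lower in EOM, where 9.25% of all probe sets were lower. These were Mybbp1a, a nucleolar Myb-binding protein (log2 difference -0.90, limma adjusted p 0.00224), and Polr1d (-0.79, limma adjusted p 0.0312). The dimmer probe set of each did not pass, with -0.92 for Mybbp1a (limma adjusted p 0.0504) and -0.68 for Polr1d (limma adjusted p 0.202). Of the 5, Polr3k, a small subunit of RNA polymerase III, was lower (-0.48, limma adjusted p 0.0348). The median of the 17 was -0.27 there, and -0.05 over all probe sets.

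Beside Slc29a1, 23 genes of nucleoside transport and adenosine handling were tested. By limma 1 was higher and 0 lower in EDL at 30 than at 6 months, with a median of -0.03. Over all probe sets 1.48% were higher and 0.383% lower, so counts of 1 and 0 are near the background. Slc29a2, the second equilibrative transporter, had 404.8 ± 120 at 6 months and 515.3 ± 58.9 at 30 months (log2 difference 0.39, SE 0.28, limma adjusted p 0.744). The sodium-driven carriers Slc28a1 and Slc28a2, which pump nucleosides inward, gave -0.24 (SE 0.197) and -0.03 (SE 0.258). The gene that passed was Ampd3, an AMP deaminase, which removes AMP that could otherwise become adenosine. Its signal was 230.3 ± 184 at 6 months (51.2 to 485.2) and 710.8 ± 229 at 30 months (502 to 942.1), and the arrays did not overlap. The log2 difference was 1.98 (SE 0.504, limma adjusted p 0.0372). This call held in 7 of 20 alternatives and was lost in 13, with adjusted p from 0.00382 to 1, among them the fit without replicate 1 of EDL at 30 months (adjusted p 0.139). Ampd1, the AMP deaminase of fast muscle fibres, gave 0.19 (limma adjusted p 0.9).

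In EOM 0 of the 23 genes passed between 30 and 6 months by limma, with 1 at an unadjusted p under 0.05. Between the muscles at 18 months 6 were higher and 1 lower in EOM by limma, beside 14.1% and 9.25% of all probe sets, so most of the list did not pass and nothing particular to it is read from the count. Higher were Enpp3 (1.5, adjusted p 0.00936) and Entpd2 (0.98, adjusted p 0.0009), which split extracellular nucleotides, and Xdh (1.44, adjusted p 0.000176), which makes uric acid from purines. The ATP-gated channel P2rx4 (1.38, adjusted p 0.00806), the carrier Slc28a2 (1.24, adjusted p 0.000878) and the adenine salvage enzyme Aprt (1.21, adjusted p 1.28e-06) were also higher. Ampd1 was lower (-1.37, adjusted p 5.7e-05).

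The row AF030089UTR#1_at is 1 of the rows whose names hold UTR#, and 72 others are on the array, 47 of them tested. Of these, 0 were higher and 3 lower in EDL at 30 than at 6 months by limma, beside 1.48% and 0.383% of all probe sets. The median was -0.13. The 3 lower rows were U75405UTR#1_f_at (log2 difference -1.84), U75928UTR#1_s_at (-1.45) and U95001UTR#1_s_at (-1.09). Over the 20 alternatives 0 to 4 of the 47 were lower. Another 7 rows carry numbers near AF030089, from AF030086 to AF030091, and 3 were tested. The rows of the adjacent numbers, AF030088UTR#1_at and AF030090UTR#1_at, were not. AF030087UTR#1_at gave -0.26, AF030091UTR#1_at -0.20 and AF030091UTR#1_g_at -0.36 in the same comparison. In EOM 0 of the 47 passed between 30 and 6 months by limma (4 at an unadjusted p under 0.05), and 5 were higher and 2 lower in EOM than in EDL at 18 months, near the 14.1% and 9.25% of all probe sets.

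**Figure D4:**
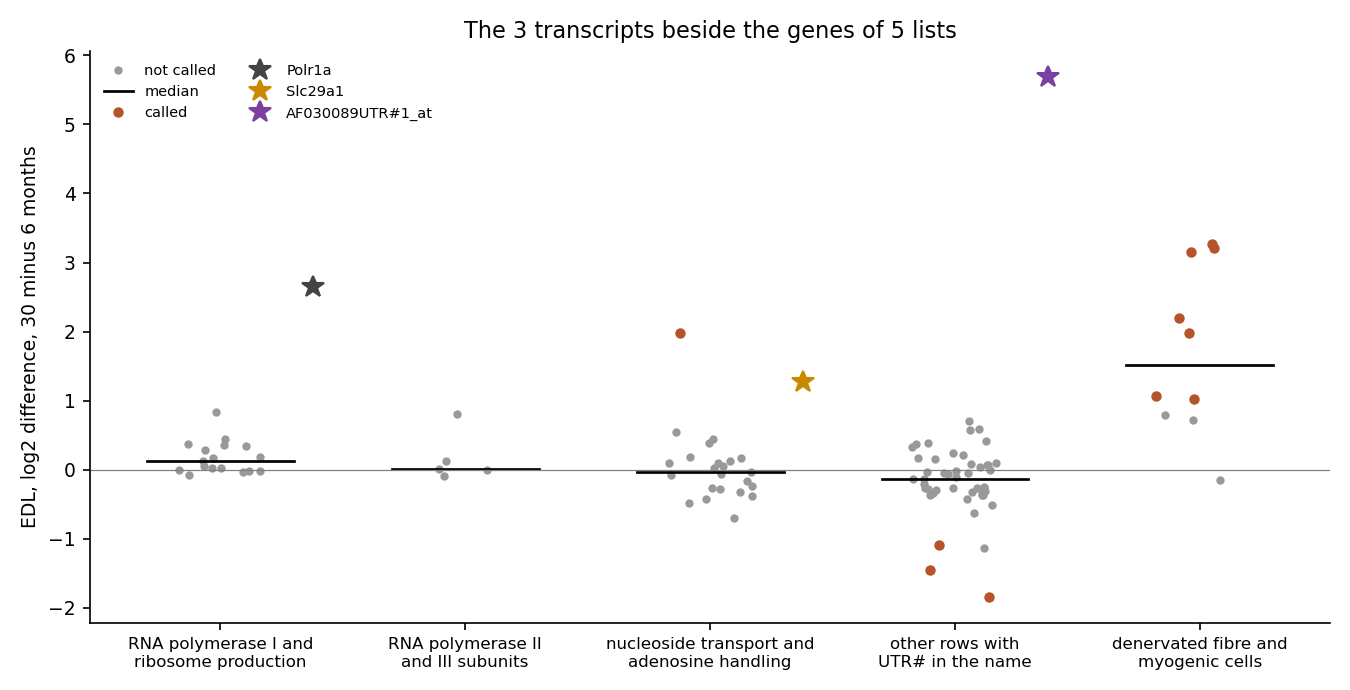
Log2 difference of 30 minus 6 months in EDL (vertical axis) for each tested gene of 5 lists (points, orange where the adjusted p was under 0.05), with list medians as black lines and the members as stars beside the list they belong with. The medians of the first 4 lists lie between -0.13 and 0.12 and that of denervated fibre and myogenic cells at 1.52.

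Genes of denervated fibres and of muscle precursor cells were higher in the same EDL arrays as the members. Of 10 tested, 7 were higher and 0 lower in EDL at 30 months by limma, with a median log2 difference of 1.52, and 1 was higher with replicates 3 and 4 alone. Over all probe sets 1.48% were higher. They included the receptor subunit Chrna1 (3.15), the stress gene Gadd45a (3.27) and the myogenic factors Myog (3.21) and Myod1 (1.03). Their summed signal was 12460 to 20990 at 30 months against 3618 to 6128 at 6 months. The same list had 0 of 10 called in EOM between these ages by limma (0 at an unadjusted p under 0.05), with sums of 8096 to 9548 and 7512 to 8868. The part of this list in the members' values was not tested.

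Markers of other cells moved too. Of 11 gland and epithelial genes, 3 were higher in EDL at 30 months by limma, and 0 with replicates 3 and 4 alone, beside 1.48% of all probe sets: the kallikrein Klk1 (log2 difference 4.92) and the keratins Krt18 (2.61) and Krt8 (2.14). Both keratins lay at the floor on 3 of 4 arrays of EDL at 6 months, so their sizes depend on the floor. The dimmer Klk1 probe set gave 2.99. Of the 11 genes, 9 had a positive sign, while Smr3b (-0.71) and Epcam (-0.30) went the other way. The summed signal was 3026 to 7571 against 414.9 to 862.4 at 6 months. In EOM it was 6169 to 7360 at 30 months and 4533 to 21060 at 6 months. Klk1 was a large part of the sum at 30 months in both muscles, with 3509 ± 2170 in EDL and 4748 ± 1350 in EOM. In EOM at 6 months Klk1 had 2349 ± 493 and Spt1 had 5945 ± 7480. At 30 months Spt1 had 28.9 ± 11.9 in EDL and 229.2 ± 49.4 in EOM. Krt18 had 56.7 ± 26.8 in EOM at 6 months and 172.8 ± 68.5 in EDL at 30 months. Of 9 fibroblast genes, 3 were lower (0 with replicates 3 and 4 alone), beside 0.383% of all probe sets, the collagen genes Col1a1 (-1.60), Col1a2 (-2.03) and Col3a1 (-1.85), with sums of 11600 to 27020 against 24900 to 40260. None passed in either direction among 7 genes of fast fibres, 3 of extraocular fibres, 9 of endothelium, 5 of macrophages, 4 of T and B lymphocytes, 8 of Schwann cells and nerve, 7 of adipocytes and 4 of erythrocytes. At an unadjusted p under 0.05 there were 3 of Schwann cells and nerve, 2 of lymphocytes and 1 each of extraocular fibres and adipocytes. The part of these cells in the members' values was not tested.

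For each member, the 5 named genes with the highest Pearson correlation of log2 signals over the 24 arrays were listed. The 24 arrays share the high group of EDL at 30 months, so r is given again over the 20 others. Copz2, a coat protein subunit of vesicles, was among the 5 for all 3 members, and the growth factor Igf2 and the adhesion receptor Pvr for 2 each.

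Polr1a was most like Igf2 (r = 0.90, n = 24, and 0.69 over the 20 other arrays). Then came Copz2 (0.86 and 0.60), Pvr (0.83 and 0.47), the retromer subunit Vps26a (0.82 and 0.82) and Mdm2, the ubiquitin ligase of p53 (0.81 and 0.59). Igf2 is reported by the brightest of 3 probe sets, with 1030 ± 140 in EDL at 6 months and 4889 ± 2100 at 30 months. The others gave log2 differences of 0.06 and -0.16 where the brightest gave 2.15, so the Igf2 probe sets disagree. The array of EDL at 18 months on which Polr1a reached 170 was also the highest of its group for Igf2 (2414.3), Copz2 (416.6), Vps26a (266.3) and Mdm2 (1010.6), but not for Pvr. Replicate 2 of EOM at 6 months, where Polr1a had 87.5, was also the highest of its group for several of them. These were Copz2 (470.4), Pvr (63.4), Vps26a (131.7) and Mdm2 (857.4), but not Igf2. In deviations from group means r was 0.58 with Igf2, 0.62 with Copz2, 0.46 with Pvr, 0.74 with Vps26a and 0.65 with Mdm2. Vps26a had the same r without the old EDL arrays, and its own log2 difference between 30 and 6 months was 0.74 (limma adjusted p 0.438). On most of the 20 other arrays Polr1a lay at or near the floor. How far r over those arrays rests on the few where Polr1a was high was not tested.

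Slc29a1 was most like Ankrd1, a stretch-responsive protein of the sarcomere and nucleus (r = 0.92, n = 24, and 0.74 over the 20 others). Ankrd1 had 842.7 ± 711 in EDL at 6 months, 5698 ± 1320 at 30 months and 161.3 ± 27.7 in EOM at 6 months. The next were the adrenergic receptor Adra1b (0.88 and 0.59), the membrane glycoprotein Emb (0.86 and 0.34), Pvr (0.84 and 0.51) and Copz2 (0.83 and 0.37). In deviations from group means r was 0.28 with Ankrd1, 0.47 with Adra1b, 0.34 with Emb, 0.26 with Pvr and 0.58 with Copz2. Adra1b went from 88.32 ± 25.7 in EDL at 6 months to 257.6 ± 102 at 30 months.

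AF030089UTR#1_at was most like Myog (r = 0.89, n = 24, and 0.68 over the 20 others), the factor that turns on late muscle differentiation. Then came B2m, the light chain of MHC class I (0.87 and 0.86), Igf2 (0.84 and 0.27), Copz2 (0.83 and 0.45) and the myosin-binding protein Mybph (0.82 and 0.80). In deviations from group means, which leave out the group differences, r was 0.81 with Myog, 0.72 with B2m, 0.29 with Igf2, 0.73 with Copz2 and 0.69 with Mybph. The Myog signals in EDL at 30 months were 2682.2, 3123.4, 1766.1 and 1820.5, in which replicates 1 and 2 were again above 3 and 4.

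**Figure D5:**
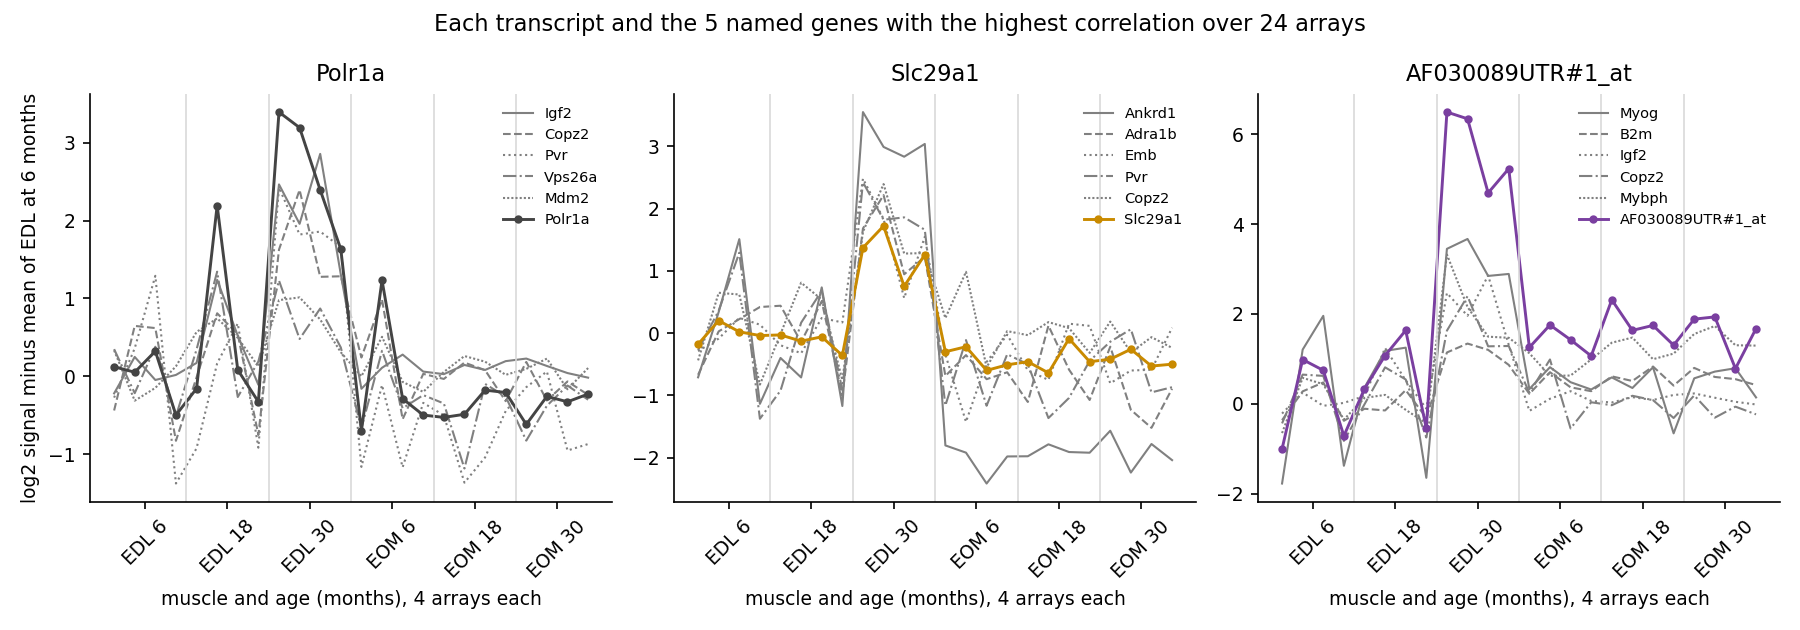
Log2 signal minus the mean of EDL at 6 months (vertical axis) on 24 arrays in order of muscle and age in months, for each member (coloured) and the 5 named genes most like it (grey). The highest array of each member and gene is in EDL at 30 months, except for Vps26a (EDL at 18 months, replicate 2, 266.3), and AF030089UTR#1_at stands higher than its 5 genes on all 4 arrays of EDL at 30 months.

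Among themselves the members were alike mainly through the old EDL. Over 24 arrays r was 0.85 for Polr1a with Slc29a1, 0.77 for Polr1a with AF030089UTR#1_at and 0.81 for Slc29a1 with AF030089UTR#1_at. Over the 20 arrays without EDL at 30 months it was 0.38, 0.00 and -0.31. Over the 12 EOM arrays it was 0.41, 0.12 and 0.31. In deviations from group means over 24 arrays it was 0.33, 0.45 and 0.63.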

How the data were processed

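Transcripts were measured in rat EDL and EOM at 3 ages on Affymetrix Rat Genome U34 arrays. The authors' deposited values are linear intensities from Affymetrix Microarray Suite 5 (MAS5), per the submitters' processing notes. The table holds 1 value per row and array, so arrays were treated as 1-colour, although the labels list Cy3 and Cy5 and the protocol a biotin stain. Replicates are described as independent, each a pool of 4 animals, and the error is that between pools.

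From 8799 rows, 59 controls were left out. Of the 8740 others, 7006 had 1 gene symbol, 308 several and 1426 none. Rows above the 40th percentile of the array (53.8 to 83.82 units) in 3 or more of the 4 arrays of some group were tested, which left 5741 rows of 3419 named genes, with 2999 not tested. All 3 members were tested, Polr1a only through EDL at 30 months. A means model of the 6 groups over 24 arrays was fitted with limma 3.58.1 in R 4.3.3 (lmFit, eBayes with trend, 18 residual degrees of freedom), after checks on simulated data. Tests were two-sided, adjusted by Benjamini-Hochberg over all rows tested. Standard errors and intervals are from this fit. The shared spread is an average over muscles whose arrays differ in scatter.

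The members and gene lists were chosen with earlier results of these data known. Comparisons that include EDL at 6 or 30 months chose the members or share arrays with that choice, so the members have no test there. Named genes were the members, the 5 genes most correlated with each, the called genes with the largest change in each pathway list and, as reference points picked after their values were seen, other subunits and carriers of the same families, Myc, Nop58 and the marker genes given. A gene was represented by its brightest tested probe set. Gene lists covered RNA polymerase I and ribosome production, RNA polymerase II and III subunits, nucleoside transport and adenosine handling, rows named UTR#, and 11 sets of cell type markers.

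Same-numbered replicates deviated together from their group means: their mean correlation was 0.25 over 60 pairs of arrays, against -0.083 over 180 pairs with different numbers. Every pair was above 0.1 for EDL at 30 and 6 months (0.12 to 0.33) and for the 3 EOM comparisons (0.14 to 0.53), but not for EOM and EDL at 18 months (0.06 to 0.32). Replicates 1 and 2, and 3 and 4, also formed sets: the mean correlation was 0.093 between different numbers of a set and -0.172 across sets, which the deviation correlations and replicate splits share. The labels do not say what a number stands for. Alternatives were the floor, filter, scaling between arrays, variance model, replicate block, samples in the fit and each array left out.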

Additional observations from a re-analysis of the deposited data

Results flagged for a closer look

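In 2 of 18 groups examined (3 members in 6 groups), 1 array lay further from the rest than Dixon's criterion for 4 values allows, and chance flags about 1 in 20 groups. Both concern Polr1a and both are replicate 2. In EDL at 18 months replicate 2 had a Polr1a signal of 170, while the others had 28 to 39.5, with a gap of 0.919 of the group's range. That array had the lowest median signal (89.7) and the lowest floor (21.37) of all arrays. Its 3' to 5' actin ratio was 2.12, and the part of array quality in its values was not tested. In EOM at 6 months replicate 2 had 87.5 and the others 21.3 to 22.4, with a gap of 0.983 of the range. In each group most other arrays lay at or near their floor, where the spread is compressed. Without replicate 2 of EOM at 6 months the log2 difference of Polr1a in EOM between 30 and 6 months was 0.139, and with it -0.29. Replicate 2 of EDL at 18 months is also the array on which Polr1a exceeded the lowest array of EDL at 30 months, 115.7.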

How the results depend on the processing

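The differences of the 3 members between EDL at 30 and 6 months kept their sign in all 20 alternatives: 1.98 to 3.21 for Polr1a, 1.01 to 1.53 for Slc29a1 and 4.92 to 6.43 for AF030089UTR#1_at. With replicates 1 and 2 alone Slc29a1 gave 1.534 and AF030089UTR#1_at 6.433, and with replicates 3 and 4 alone 1.015 and 4.948. With no floor AF030089UTR#1_at gave 4.919. The replicate block changed no call of a member. The EOM differences near 0 changed sign, and none passed. For Polr1a, EOM at 30 minus 6 months was 0.114 with replicates 3 and 4 alone and -0.506 to 0.139 on leaving out 1 array, and 18 minus 6 months was 0.202 and -0.498 to 0.148. Its 30 minus 18 months was 0.604 with the lower floor, 0.231 with no floor, 0.025 with quantile normalization, 0.008 with median centring, 0.03 with array weights, 0.072 with replicates 1 and 2 alone and -0.068 to 0.078 on leaving out 1 array. For Slc29a1, 30 minus 6 months was 0.002 with quantile normalization, 0.039 with replicates 3 and 4 alone and -0.085 to 0.042 on leaving out 1 array. Its 18 minus 6 months was 0.016, 0.282 and -0.109 to 0.073, and its 30 minus 18 months 0.055 with array weights, 0.204 with replicates 1 and 2 alone and -0.095 to 0.088 on leaving out 1 array. For AF030089UTR#1_at, 30 minus 6 months was -0.009 with replicates 3 and 4 alone, and 30 minus 18 months -0.329 to 0.083 on leaving out 1 array. Between the muscles at 18 months, Polr1a passed with the lower floor (-1.568, limma adjusted p 0.0462), with -1.055 to -0.216 on leaving out 1 array, and AF030089UTR#1_at with array weights (1.2, limma adjusted p 0.0412) and without replicate 3 of EDL (limma adjusted p 0.0372), with 0.731 to 1.458 on leaving out 1 array. The cause was not tested.

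The 107 calls between EDL at 30 and 6 months were 172 with the replicate block, 30 with only the groups compared, 60 with EDL at 6 months from replicates 3 and 4, 186 with replicates 1 and 2 alone, 5 with replicates 3 and 4 alone and 68 to 159 on leaving out 1 array. The 1343 calls between the muscles at 18 months were 849 and 623 with replicates 1 and 2 or 3 and 4 alone and 800 by non-overlap with a ratio above 2. Calls in EOM by limma ranged from 0 to 4 (30 against 6 months), 0 to 44 (18 against 6) and 0 to 12 (30 against 18). By non-overlap with a ratio above 2 they were 26, 63 and 9. Of the genes listed as most like Polr1a, Slc29a1 and AF030089UTR#1_at, 2, 3 and 1 of 5 were listed again from group means, and 1, 0 and 2 from deviations. Signals near the floor limit Polr1a in all groups but EDL at 30 months.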
